A study of Mus musculus with 8 samples.

Results

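The genes described here are those of the cytosolic ribosomal proteins, the protein part of the ribosomes that translate cellular mRNA. They were taken by name from the platform annotation: symbols starting with Rpl or Rps followed by a digit, with Rplp0, Rplp1 and Rpsa. The S6 kinases (Rps6k genes) and pseudogenes were left out, 7 names in all. The rule found 68 of the 19505 named genes on the array, each with 1 probe set. Of these, 33 encode standard proteins of the large subunit and 22 standard proteins of the small subunit. A further 12 are paralogs or retrogenes, such as Rps27l and Rpl3l, and 1, Rps19bp1, encodes a protein that binds Rps19 and is not part of the ribosome. The 55 standard genes are called core genes in what follows. Rplp2, Rps3, Rpl10, Rpl13a, Rps27 and Rps27a are not analysed here.

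The study sorted type 1 conventional dendritic cells (cDC1), a subset that shows antigen to CD8 T cells, from the spleens of naive wild-type C57BL/6 mice. The cells were divided by a TMRM/MG gate into a high and a low fraction. TMRM is a dye that enters mitochondria with their membrane potential, and the labels do not spell out MG. There were 4 arrays of TMRM/MG-high cells and 4 of TMRM/MG-low cells, with no treatment and no age or sex named. The labels do not say whether the arrays of a group came from separate mice, pools or sorting days, so a p-value here reflects the spread among these arrays alone, and that spread may be technical. Values are deposited log2 signals, and a difference is the high mean minus the low mean on the log2 scale.

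A ribosome joins a small subunit, which reads the mRNA, to a large subunit, which forms the peptide bond. Most standard ribosomal proteins are needed in equal number, and the mRNAs are among the most abundant in nearly every cell. Most of them start with a run of pyrimidines, the terminal oligopyrimidine (TOP) motif. Through this run mTOR and the RNA-binding protein Larp1 set how much of the mRNA is translated, so protein output can move while the mRNA level does not. Spare ribosomal proteins are unstable, and free Rpl5 and Rpl11 bind Mdm2, the inhibitor of p53. Dendritic cells raise protein synthesis when they are activated.

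The start regions of 8 members are printed to show their longest pyrimidine run near the annotated start, and because the results turn on these genes. They are RefSeq sequence of build GRCm38.p6, from 50 bases before the annotated start to 30 bases after its first base on the transcribed strand. Capitals mark the longest run of C or T within 30 bases of the start, or the first where runs tie, as in Rps27l, which has 2 of equal length. Rpl39 (chrX:37085193-37085272, minus strand), Rps27l (chr9:66946036-66946115, plus strand) and Rpl3l (chr17:24727776-24727855, plus strand) are the members that passed the test.
Rpl39: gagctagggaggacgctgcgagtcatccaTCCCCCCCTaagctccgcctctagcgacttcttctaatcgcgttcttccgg
Rps27l: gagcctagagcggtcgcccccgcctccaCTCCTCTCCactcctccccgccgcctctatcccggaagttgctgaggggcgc
Rpl3l: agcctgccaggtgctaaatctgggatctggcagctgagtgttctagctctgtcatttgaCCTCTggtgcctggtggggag
Rpl39l (chr16:10170178-10170257, plus strand) and Rpl22l1 (chr3:28805458-28805537, plus strand) are paralogs of Rpl39 and Rpl22.
Rpl39l: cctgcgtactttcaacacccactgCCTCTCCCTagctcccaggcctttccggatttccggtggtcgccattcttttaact
Rpl22l1: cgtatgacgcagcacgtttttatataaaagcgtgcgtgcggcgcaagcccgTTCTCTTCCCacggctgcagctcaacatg
Rpl11 (chr4:136053364-136053443, minus strand), Rpl35 (chr2:39005102-39005181, minus strand) and Rplp0 (chr5:115559417-115559496, plus strand) are core genes whose groups of arrays did not overlap.
Rpl11: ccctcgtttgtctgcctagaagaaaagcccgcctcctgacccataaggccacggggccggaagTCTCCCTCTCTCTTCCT
Rpl35: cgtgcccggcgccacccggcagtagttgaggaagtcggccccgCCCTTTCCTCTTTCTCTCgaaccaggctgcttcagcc
Rplp0: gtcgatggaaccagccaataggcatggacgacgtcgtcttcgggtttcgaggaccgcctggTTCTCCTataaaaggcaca
The run was 17 bases in Rpl11 and 18 bases in Rpl35, and 10 bases in Rpl22l1. It was 9 bases in Rpl39, Rpl39l and Rps27l, 7 bases in Rplp0 and 5 bases in Rpl3l. Counted from the annotated start, the run began at -21 in Rpl39, -22 in Rps27l and -26 in Rpl39l, and ended before the start. It began after the start in Rpl11 (14), Rplp0 (12), Rpl3l (10) and Rpl22l1 (2). In Rpl35 it began at -7 and ran across the start. A marked run is thus not shown to be the TOP motif. Start sites in the annotation can lie some bases from the start used in a cell, and these arrays do not measure it.

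Starts were listed for 55 of the 68 members, 43 of them core genes and 11 paralogs. For the 9 members with several listed starts the first was used. A run of at least 8 pyrimidines within 30 bases of the start, on the transcribed strand, was found in 20 of the 43 core genes (46.5%) and in 22.8% of all 27025 genes with a listed start. Runs on either side of the start were counted, so this is not a count of TOP motifs. On the other strand the same run was found in 14% of the core genes and 25.2% of all genes. The letters CCGGAAG, a sequence of the kind bound by ETS family transcription factors, were found on either strand of the 300-base window in 44.2% of the core genes and 9.12% of all genes. The same window held CACGTG, the E-box sequence bound by Myc, in 6.98% of core genes and 7.24% of all genes. It held TATAAA, the TATA box, in 9.3% and 14.2%. It held AAGATGG, a sequence bound by YY1, in 14% and 6.48%. Core genes with the pyrimidine run had a median difference of 0.059 between the fractions, and those without it 0.082. The subunits went opposite ways: with and without the run the medians were 0.114 and 0.082 in the large subunit and 0.050 and 0.084 in the small. With and without CCGGAAG, the medians were 0.082 and 0.069 over both subunits, 0.112 and 0.050 in the large and 0.047 and 0.12 in the small. A match is a description of these letters and not of a bound site.

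Nearly all core ribosomal protein mRNAs had about the same signal in the 2 fractions, with a small tilt towards the TMRM/MG-high arrays. The median difference over the 55 core genes was 0.071, with the middle of the distribution from 0.015 to 0.12. It was positive in 47 and negative in 8 genes. The sizes were small: 54 of the 55 core genes lay within 0.25 of 0, and the 95% interval of 54 lay within 0.5 of it. The exception to both was Rpl39. Over all 22206 probe sets tested the median difference was 0.009, and 52.1% of differences were positive. Bright probe sets in general leaned the same way. The 586 with a mean of 12 or more, core genes among them, had a median difference of 0.082, with 71.7% positive. At a mean of 13 or more, the median was 0.041 over all 110 probe sets (70% positive) and 0.063 over 27 core genes (85.2%). Between 12 and 13 it was 0.102 over all 476 probe sets (72.1%) and 0.082 over 23 core genes (91.3%).

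**Figure D1:**
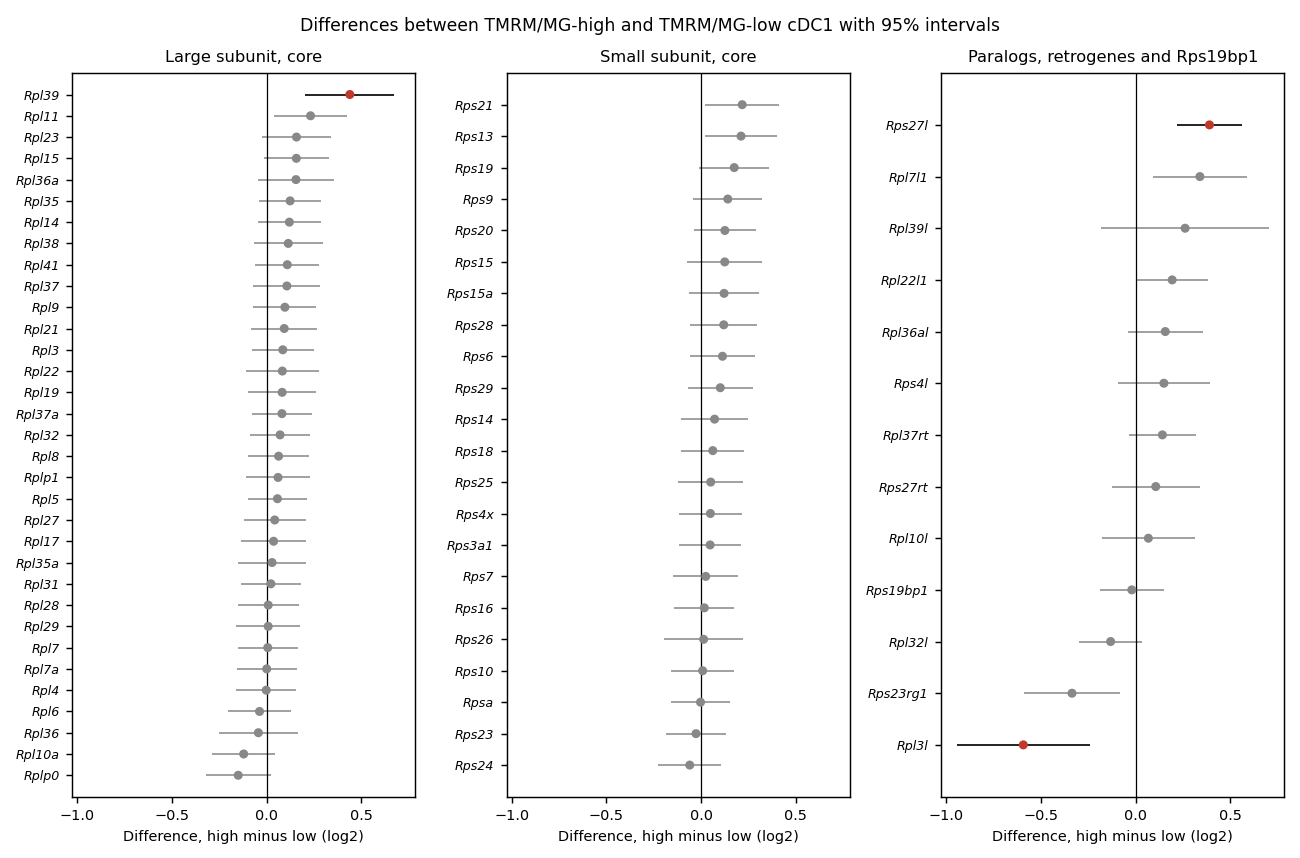
Difference in log2 signal, TMRM/MG-high minus TMRM/MG-low (4 arrays of each), for each of the 68 members in 3 panels, as points with 95% intervals from limma; red points passed the test. Most points lie just above 0, Rpl39 and Rps27l are highest in their panels, and Rpl3l is lowest of all at -0.59.

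By limma with Benjamini-Hochberg adjustment over all probe sets at 0.05, 2 members were higher in TMRM/MG-high cells, Rpl39 and Rps27l, against 5.28% of all probe sets called higher. A single member was lower, Rpl3l, against 2.96% of all probe sets. Thus 4.41% of the members were called, where 8.25% of all probe sets were. At an unadjusted p under 0.05 there were 9 members (13.2%), where 25.5% of all probe sets were. Of these 7 were higher and 2 lower, against 15.3% and 10.1% of all probe sets. With the variance modelled by signal level and a robust fit, limma called 9 members higher and 1 lower, against 8.78% and 3.94% of all probe sets. The 9 were Rpl39, Rps27l, Rpl7l1, Rpl11, Rps21, Rps13, Rpl15, Rps20 and Rpl35, of which the last 3 are named after their values were seen. None of the 2 higher calls was left when TMRM/MG-high array 2 or array 3 was omitted.

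Rpl39 is a very short protein at the wall of the exit tunnel of the large subunit. Its log2 signal was 10.13, 10.42, 10.41 and 10.35 on TMRM/MG-low arrays 1 to 4, and 10.61, 10.87, 10.62 and 10.97 on TMRM/MG-high arrays 1 to 4. All 4 high arrays lay above all 4 low arrays, with low array 1 the lowest. The difference was 0.44 ± 0.11 (SE, n = 4 and 4), or 1.36-fold, with a 95% interval of 0.20 to 0.67 and an adjusted p of 0.0306 by limma. The call held in 2 of the 8 fits that left out an array, those without low array 3 and without high array 1, and the largest adjusted p among the 8 was 0.0945.

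Over the 33 large subunit core genes, Rpl39 included, the median difference was 0.071, with 28 positive. Rpl11, of the particle that binds Mdm2, came next. It read 11.99, 12.23, 12.27 and 12.19 in the low fraction and 12.29, 12.44, 12.40 and 12.47 in the high fraction. The groups did not overlap, but low array 3 lay just below high array 1, and the difference of 0.23 ± 0.088 (SE) had an adjusted p of 0.128 by limma. Its partner Rpl5 read 13.12, 13.10, 13.12 and 13.12 in the low fraction and 13.18, 13.20, 13.15 and 13.17 in the high fraction. The high arrays were all above the low ones by a very small margin, a difference of 0.057 with an adjusted p of 0.673 by limma. Rpl23, which also binds Mdm2, differed by 0.16 with overlapping groups (adjusted p 0.269, limma).

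The stalk of the large subunit recruits elongation factors and is built on Rplp0, which carries Rplp1 and Rplp2. Rplp0 had the lowest difference of the core genes. It read 11.46, 11.64, 11.57 and 11.60 in the low fraction and 11.35, 11.44, 11.42 and 11.46 in the high fraction. Every high array lay below every low array, though high array 4 and low array 1 were nearly equal. The difference was -0.15 ± 0.078 (SE), with an adjusted p of 0.258 by limma. Rplp1, carried by Rplp0 in the stalk, differed by 0.060 with an adjusted p of 0.677 by limma.

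Rpl10a, another large subunit protein, had the same pattern as Rplp0. It read 12.16, 12.29, 12.21 and 12.23 in the low fraction and 12.01, 12.15, 12.10 and 12.14 in the high fraction. The groups did not overlap, and the difference of -0.12 had an adjusted p of 0.356 by limma. Rpl36 and Rpl6, further large subunit proteins, differed by -0.044 and -0.037, with overlapping groups. Of the members known for roles in single tissues or transcripts, Rpl38, needed for translation of Hox mRNAs, differed by 0.11. Rpl22, whose loss blocks T cell development, differed by 0.083. Neither passed the test, and both had overlapping groups.

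No core gene of the small subunit passed the test in either direction. At an unadjusted p under 0.05 there were 2 of the 22 (9.09%, where 25.5% of all probe sets were), Rps21 and Rps13. The median difference over the 22 genes was 0.066, with 19 positive, and the 95% intervals together spanned -0.23 to 0.41. Rps21, a small protein on the solvent side, had the largest difference at 0.22. It read 12.37, 12.57, 12.69 and 12.58 in the low fraction and 12.73, 12.84, 12.70 and 12.80 in the high fraction. The groups met without overlapping, at low array 3 and high array 3, and the adjusted p was 0.154 by limma. Rps13 differed by 0.21 with overlapping groups and an adjusted p of 0.157 by limma.

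Rps19, the protein most often mutated in Diamond-Blackfan anemia, read 11.38, 11.51, 11.51 and 11.41 in the low fraction. It read 11.51, 11.67, 11.55 and 11.77 in the high fraction. High array 1 was nearly level with low array 2, and the difference of 0.17 had an adjusted p of 0.226 by limma. Rps19bp1, which binds Rps19, differed by -0.020. Rps6, the substrate of the S6 kinases and a common readout of mTOR activity at the protein level, differed by 0.11, with a 95% interval of -0.058 to 0.28. Rpsa, also known as the laminin receptor, differed by -0.0033, Rps4x by 0.049 and Rps24 by -0.060. None of these passed the test by limma.

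Without overlap between the groups, 10 members were higher in TMRM/MG-high cells, where 9.7% of all probe sets were, and 3 were lower, where 6.37% were. These 13 members compare with 16.1% of all probe sets in either direction. Those higher were Rpl39, Rps27l, Rpl11, Rps21, Rpl22l1, Rps19, Rpl15, Rpl35, Rpl37a and Rpl5, and those lower were Rplp0, Rpl10a and Rpl32l. Rpl37a is named after its values were seen. After each array was centred on its own median, 4 members did not overlap, where 15% of all probe sets did not: Rpl39, Rps27l and Rpl32l, which are among the 13, and Rpl3l.

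**Figure D2:**
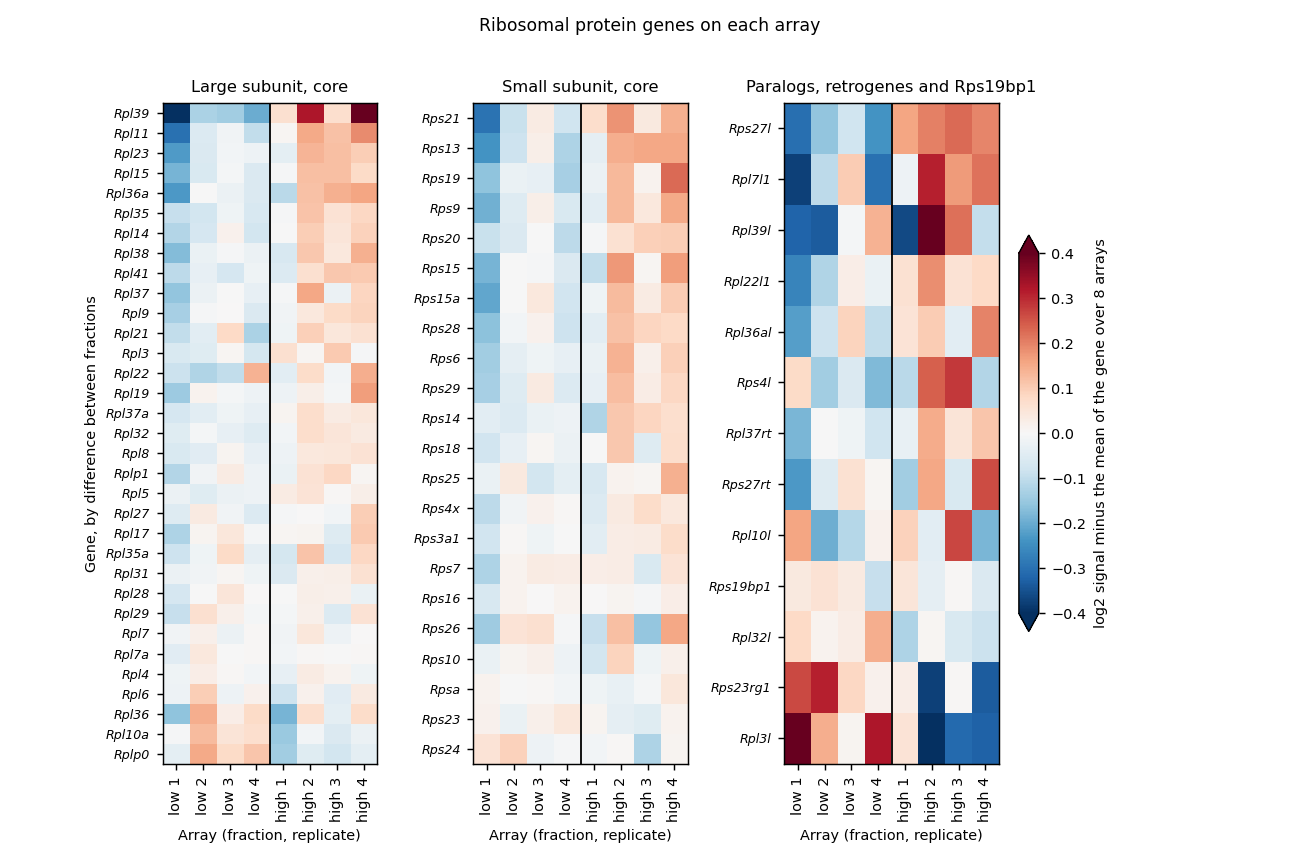
Log2 signal of each member (rows, ordered by difference) on each of the 8 arrays (columns), centred on the gene's mean over the arrays, with colours limited to 0.4 either way. TMRM/MG-low array 1 holds the lowest value of 34 of the 55 core genes, and Rpl39 and Rps27l change sides between the fractions.

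The tilt of the core genes was uneven over the arrays. Of the 55 core genes, 34 had their lowest value on TMRM/MG-low array 1, 8 on high array 1 and 5 on low array 4. High array 2 and high array 4 each held the highest value of 21 genes, and low array 2 that of 7. After centring each gene on its mean over the 8 arrays, the median over the 41 genes named Rpl was -0.093, -0.017, -0.00077 and -0.021 on low arrays 1 to 4. On high arrays 1 to 4 it was -0.013, 0.063, 0.033 and 0.073. High array 1 thus lay among low arrays 2 to 4, and low array 1 lay below all others.

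The 27 genes named Rps, Rps19bp1 among them, followed the same arrays. Their centred median was -0.105, -0.013, 0.017 and -0.033 on low arrays 1 to 4, and -0.027, 0.108, 0.014 and 0.080 on high arrays 1 to 4. The groups overlapped in both subunits. The large minus the small subunit was 0.012, -0.0039, -0.017 and 0.012 in the low fraction and 0.014, -0.045, 0.019 and -0.0075 in the high fraction. It had no common sign in either fraction, and its mean was 0.0056 lower in the high fraction.

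Counted by name, with paralogs and Rps19bp1 included, the median difference was 0.081 over the 41 Rpl genes and 0.071 over the 27 Rps genes. These medians thus differed by 0.0099. The large minus small value per array is another measure, with an SD between arrays of 0.023. That SD is of single arrays and not an error of the gap between the medians. The per-array measure had the opposite sign between fractions, -0.0056 high minus low, and -0.012 over core genes alone. The gap between the medians was -0.036 without high array 1, -0.013 without high array 3 and -0.011 with array weights, so its sign was not stable.

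Technical readings moved with the fractions. The poly-A spike-in probe sets, RNAs added to the sample before labelling, read 6.32 ± 0.44 (SD, n = 4) on the high and 7.55 ± 0.28 on the low arrays. On high arrays 1 to 4 they read 6.96, 6.19, 5.99 and 6.15 and on low arrays 1 to 4 they read 7.74, 7.85, 7.27 and 7.35, with no overlap. The positive control probe sets, which lie in exons of widely expressed genes, had medians of 10.38, 10.49, 10.42 and 10.48 on the high arrays. On the low arrays these were 10.21, 10.28, 10.37 and 10.26, a mean difference of 0.16. The hybridization controls, added after labelling, were also lower on all high arrays, at 11.8 ± 0.068 (SD) against 12.4 ± 0.16. So was the GC-rich background probe set, at 9.13 ± 0.081 against 9.78 ± 0.18. When the spike-in level entered the fit, no member was called, and the medians were -0.0092 for the large and -0.0175 for the small subunit. The spike-in level did not overlap between the fractions, so that fit cannot part it from the fraction. Nothing is concluded from the calls lost there. In that fit Rpl39 differed by 0.24, Rps27l by 0.29 and Rpl3l by -0.012. The part of these readings in the results was not tested.

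The core genes sat near the top of the scale, with mean signals from 10.5 to 13.8 and a median of 12.9. The brightest probe set on an array read 14.13 to 14.26. The 27 core genes with a mean of 13 or more had a median difference of 0.063, the 23 between 12 and 13 had 0.082, and the 5 below 12 had 0.093. Across the 55 core genes, which share all 8 arrays, level and difference had a Pearson correlation of -0.24 and a Spearman correlation of -0.12. The part of the upper end of the scale in the small size of the differences was not tested.

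**Figure D3:**
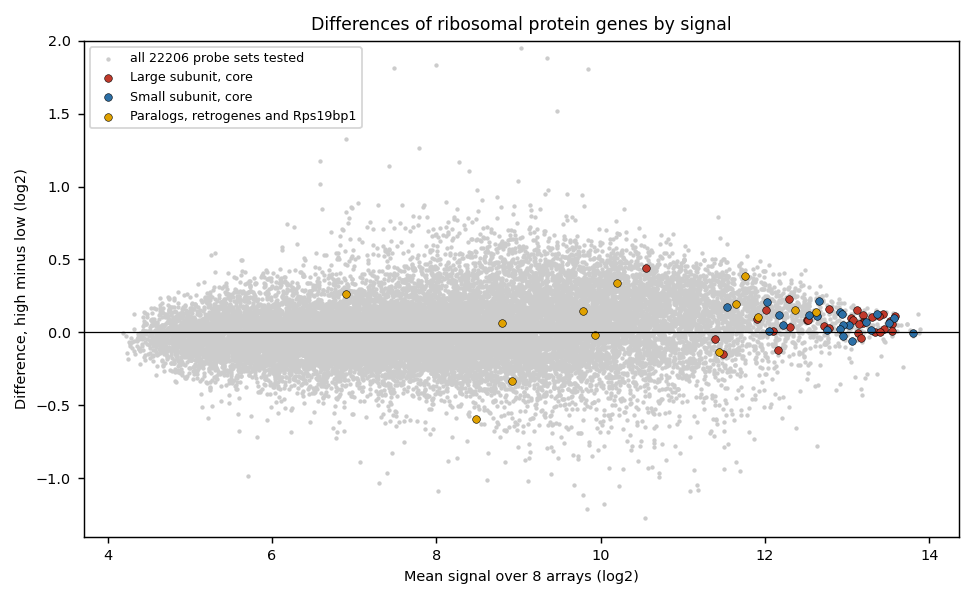
Difference in log2 signal, TMRM/MG-high minus TMRM/MG-low, against the mean log2 signal over 8 arrays, a point per probe set: large subunit core genes, small subunit core genes, paralogs with Rps19bp1, and all 22206 probe sets tested in grey. The core genes lie between mean signals of 10.5 and 13.8 and close to 0, and the paralogs reach down in signal to Rpl39l.

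The 8 cDC1 markers had mean signals 2.97 (Itgae) to 5.78 (Xcr1) above the negative control median, and none was called. The markers of the other cell types lay 0.195 (Fcnb) to 4.66 (C1qa) above it, so a signal above the negative controls does not by itself show the cell type. The mean level of the cDC1 markers was 11.8 to 11.9 on the high and 11.7 to 12.002 on the low arrays. That mean hides differences of opposite sign. Without overlap between the groups, Cd8a (0.31) and Xcr1 (0.14) were higher and Clec9a (-0.21) and Wdfy4 (-0.16) lower in TMRM/MG-high cells. The other cDC1 markers overlapped, and 16.1% of all probe sets did not. Markers of other cells moved between the fractions. Of 9 plasmacytoid dendritic cell markers 7 were higher, with a mean level over the 9 of 10.2 to 10.5 on the high and 9.54 to 9.67 on the low arrays. The 7 were Siglech (1.81), Klk1 (1.52), Ccr9 (0.94), Bst2 (0.79), Ly6d (0.55), Tcf4 (0.40) and Pacsin1 (0.38). Cox6a2 (0.20) and Spib (0.19) were not called. Of 5 T cell markers 3 were lower, Cd3e, Cd3d and Cd3g, with a mean level of 9.17 to 9.45 on the high and 9.44 to 9.94 on the low arrays. Of 4 monocyte and neutrophil markers 1, Csf3r, was lower, with levels of 8.58 to 9.16 and 9.18 to 9.87. All 5 NK cell markers had negative differences, none called, with levels of 7.99 to 8.89 and 8.38 to 9.55. No B cell, cDC2, red pulp macrophage or erythroid and platelet marker was called. Fewer cells of a type and less RNA per cell cannot be told apart in these sorted populations, and the part of other cells in the results was not tested.

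**Figure D4:**
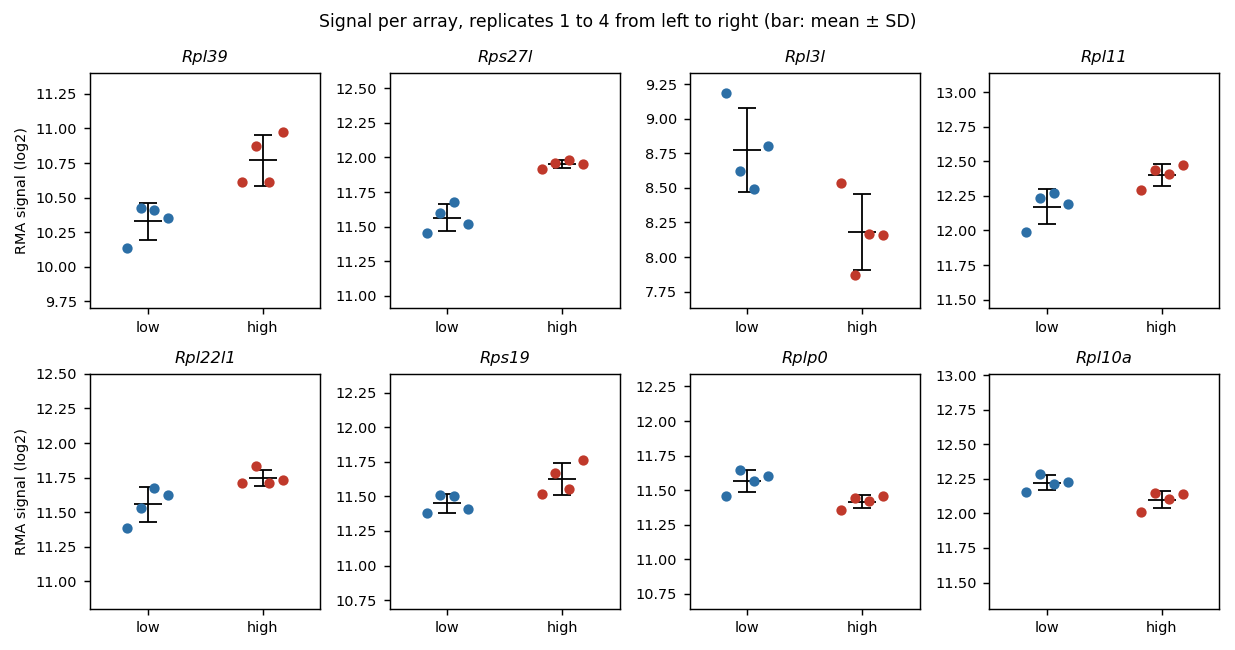
Log2 signal of 8 members on each array, replicates 1 to 4 from left to right, for TMRM/MG-low (blue) and TMRM/MG-high (red), with the mean and SD of the 4 arrays as bars; each panel has its own range of equal height. Rps27l has the tightest high group, Rpl3l overlaps between the fractions, and Rplp0 and Rpl10a lie lower in the high fraction.

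Among the 12 paralogs and retrogenes the differences were wider, from -0.59 to 0.39, with a median of 0.145. Rps27l stands in for Rps27 in some ribosomes and is induced by p53. It read 11.46, 11.60, 11.68 and 11.52 on the low arrays and 11.92, 11.96, 11.98 and 11.95 on the high arrays. The high arrays were tightly grouped and all above the low ones. The difference was 0.39 ± 0.080 (SE, n = 4 and 4), or 1.31-fold, with a 95% interval of 0.22 to 0.56 and an adjusted p of 0.0172 by limma. It was called in 6 of the 8 fits that left out an array, with adjusted p 0.0558 without high array 2 and 0.0601 without high array 3. Rps27rt, a retrogene copy of Rps27, differed by 0.11 with overlapping groups. Rps27 itself was not analysed here.

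Rpl3l replaces Rpl3 in the ribosomes of heart and skeletal muscle. It read 9.18, 8.62, 8.49 and 8.80 on the low arrays and 8.53, 7.87, 8.17 and 8.16 on the high arrays. Low array 1 stood above the rest, and the groups overlapped, since low array 3 was below high array 1. The difference was -0.59 ± 0.16 (SE), or 1.51-fold lower in TMRM/MG-high cells, with a 95% interval of -0.94 to -0.24 and an adjusted p of 0.0436 by limma. The call held in 2 of the 8 fits that left out an array, and the largest adjusted p was 0.127. The mean signal was 1.67 above the negative control median. Its parent Rpl3 differed by 0.085 with overlapping groups (adjusted p 0.517, limma), and the difference between the pair was not tested.

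Rpl22l1, the paralog that is raised when Rpl22 is lost, read 11.39, 11.53, 11.68 and 11.63 in the low fraction. It read 11.71, 11.84, 11.71 and 11.73 in the high fraction. The groups did not overlap, and low array 3 came closest to the high arrays. The difference was 0.19 with an adjusted p of 0.190 by limma. Rpl39l, the form of Rpl39 used in male germ cells, was only 0.093 above the negative control median. It differed by 0.26 ± 0.20 (SE) with overlapping groups, so its signal here cannot be told from background. Rpl10l, which replaces Rpl10 in male germ cells, differed by 0.067 with overlapping groups.

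Rpl7l1, a relative of Rpl7 known from ribosome assembly, read 9.83, 10.10, 10.30 and 9.90 on the low and 10.18, 10.51, 10.37 and 10.42 on the high arrays. Low array 3 lay inside the range of the high arrays, and the difference of 0.34 had an adjusted p of 0.0896 by limma. Rpl7 differed by 0.0059. Rps23rg1, a retrogene of Rps23, read 9.19, 9.23, 9.004 and 8.94 on the low and 8.95, 8.55, 8.93 and 8.59 on the high arrays. Only low array 4 fell within the high range, and the difference of -0.34 had an adjusted p of 0.0936 by limma. Rpl36al and Rpl36a, which encode nearly the same protein, differed by 0.16 and 0.15. Rps4l differed by 0.15, and the retrogene Rpl32l by -0.13, the latter without overlap. None of these passed the test. Ribosomal protein genes have many processed pseudogenes and near-identical copies, so probes may be shared and the values of single members, the copies above all, are uncertain to that extent.

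Genes that make and use ribosomes were read from lists beside the members. Of 165 such genes measured, 22 were higher (13.3%) and 4 lower (2.42%) in TMRM/MG-high cells, where 5.28% and 2.96% of all probe sets were. This count ran from 4 to 34 when single arrays were omitted: without high array 2 or 3 it was 4, without low array 1 it was 8, without low array 2 it was 10, without low array 4 it was 9 and without high array 4 it was 7. The calls over all probe sets in those fits are not given here. The range can therefore not be read as particular to these lists. The count of related genes called was 0 when the spike-in level, which did not overlap between the fractions, entered the fit. That fit cannot part the spike-in level from the fraction.

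**Figure D5:**
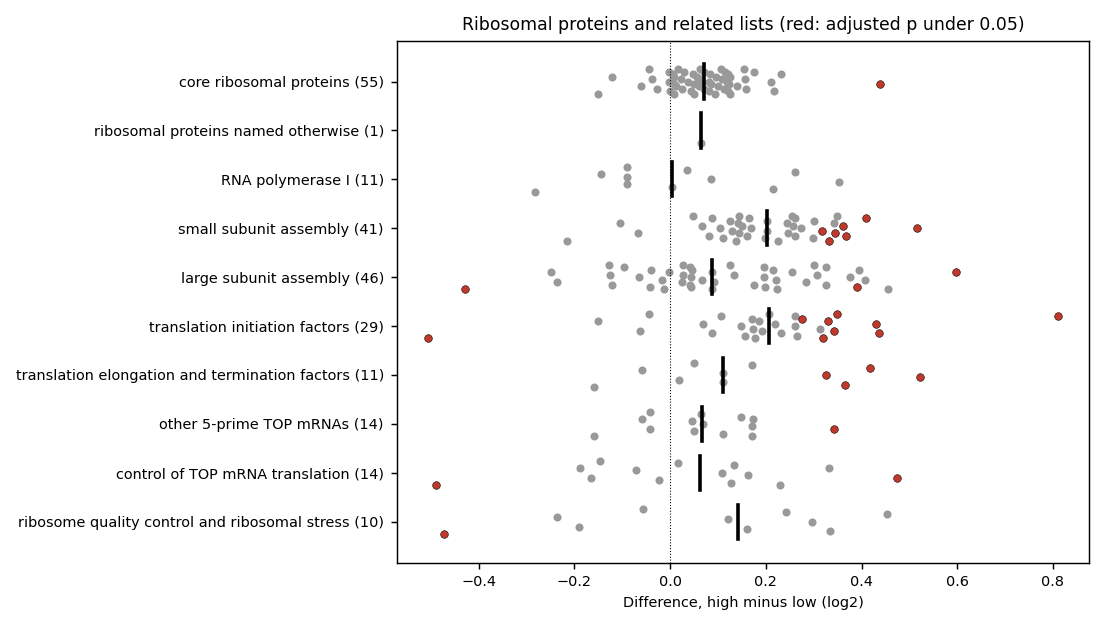
Difference in log2 signal, TMRM/MG-high minus TMRM/MG-low, for the 55 core ribosomal protein genes and each list of related genes, a point per gene (red where the adjusted p was under 0.05) with the list's median as a bar. The core genes are packed near their median of 0.071, and the assembly and translation factor lists spread wider.

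Of the RNA polymerase I genes, which make ribosomal RNA, 0 of 11 were called, with a median difference of 0.0036 and Rrn3, the initiation factor of this polymerase, at 0.35 (adjusted p 0.0895, limma). Of 41 small subunit assembly factors 7 were higher and 0 lower, with a median of 0.202. Wdr36 and Tbl3, of the early small subunit processome, rose by 0.41 and 0.34, and Utp6 by 0.32. Ltv1, a late export factor, rose by 0.37 ± 0.076 (SE; adjusted p 0.0176, limma). Of 46 large subunit assembly factors 2 were higher and 1 lower, with a median of 0.088. Rpf2, which helps place Rpl5 and Rpl11 in the large subunit, rose by 0.60 ± 0.10 (SE) with an adjusted p of 0.00925 by limma. Nmd3, the export adaptor of the large subunit, rose by 0.39, and Efl1, a GTPase that releases Eif6, fell by 0.43.

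Of 29 translation initiation factors 8 were higher and 1 lower, with a median of 0.206. Eif4e, the cap-binding protein, rose by 0.44, and the Eif2b exchange factor subunits Eif2b3 and Eif2b1 rose by 0.81 and 0.32. The Eif4e call was lost under a repeat of quantile normalization (adjusted p 0.0661, limma) and the Eif2b1 call under median centring (adjusted p 0.0527, limma). Eif4g3, a scaffold of the cap complex, fell by 0.51. Of 11 elongation and termination factors 4 were higher, with a median of 0.111: the release factors Gspt1 and Etf1 rose by 0.42 and 0.37, the recycling factor Abce1 by 0.52 and Eef1e1, of the synthetase complex, by 0.33. The Eef1e1 call was lost under quantile normalization and median centring (adjusted p 0.0715 and 0.0572, limma).

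Of 14 other genes whose mRNAs carry the TOP motif 1, the initiation factor subunit Eif3e, was higher at 0.34, and the median was 0.066. That call was lost under quantile normalization and median centring (adjusted p 0.0656 and 0.0676, limma). Fau, which encodes a ribosomal protein fused to a ubiquitin-like part, differed by 0.064. Of 14 genes that control TOP mRNA translation, Rheb, the activator of mTOR, rose by 0.47 and Tia1, an RNA-binding repressor, fell by 0.49, and the list's median was 0.063. Of 10 genes of ribosome quality control and ribosomal stress 1 was called: Eif2ak4, the kinase that senses stalled ribosomes and uncharged tRNA, fell by 0.47. For the 76 genes of the mitochondrial ribosome (Mrpl and Mrps), the median difference was 0.265, with 18 higher and 1 lower. Of all probe sets, 5.28% were called higher and 2.96% lower. Differences between lists were not tested.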

How the data were processed

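Total RNA of 8 sorted cell samples was labelled with the Whole Transcript Plus kit, per the labels' protocols. The deposited values are log2 signals made with RMA in Affymetrix Expression Console 1.1, per the submitters' processing notes. RMA sets all arrays to a common distribution, so a change shared by most transcripts is removed and the ribosomal protein mRNA per cell is not measured. Scanner files were not used here.

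Of 28846 probe sets 6640 controls were left out. The fractions were compared in limma 3.58.1 (lmFit and eBayes, R 4.3.3), two-sided, adjusted by Benjamini-Hochberg over 22206 probe sets at 0.05, and tested on simulated data. Promoters came from RefSeq (GRCm38.p6), matched by Entrez ID for all 68 members. Named members are those called, the 8 largest differences in each direction, and those of fixed interest. Of each related list, up to 4 called genes or the gene of smallest p are named. Markers with a changed level are named as called, and cDC1 markers also where the groups did not overlap. The members and lists were chosen with earlier results of these data known. Alternatives were a replicate block, other normalizations, a dim filter, another variance model, array weights, a spike-in covariate and leaving out arrays. Figures were drawn with matplotlib 3.10.9.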

Additional observations from a re-analysis of the deposited data

Results flagged for a closer look

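Each of these values lay so far from the other 3 arrays of its group that the gap exceeded Dixon's 95% critical value for 4 samples. There were 8 such values among 72 groups checked, and chance flags about 1 in 20 groups.

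On TMRM/MG-high array 1, Rps13 read 11.99 against 12.17 for the next array, and Rpl36a read 11.90 against 12.12. On TMRM/MG-high array 3, Rps24 read 12.94, with the next at 13.05. On TMRM/MG-low array 1, Rps6 read 12.49 with the next at 12.59, and Rpl38 read 13.21 with the next at 13.35. On TMRM/MG-low array 2, Rpl5 read 13.10 with the next at 13.12. On TMRM/MG-low array 4, Rpl22 read 12.65, above the next at 12.42, and Rps19bp1 read 9.84, below the next at 9.97. None of these genes was called.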

How the results depend on the processing

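Quantile normalization, median centring and leaving out dim probe sets gave 2 members higher and 1 lower, with 20, 20 and 34 related genes called, in place of 26. The tilt was smaller under quantile normalization. The medians counted by name were then 0.042 (large) and 0.039 (small), in place of 0.081 and 0.071. Median centring left 4 members without overlap, in place of 13. With an intensity trend and robust fit, 9 members were higher and 50 related genes were called, and with array weights 40. When the spike-in level entered the fit, 0 members were higher, 0 lower and 0 related genes called. The subunit medians were then -0.0092 (large) and -0.0175 (small). The spike-in level did not overlap between the fractions, so that fit cannot part it from the fraction. Leaving out single arrays gave 0 to 3 members higher, 0 to 1 lower, 4 to 34 related genes and 13 to 35 members without overlap. Smaller groups separate more easily, so these counts without overlap cannot be set beside the 13 of all arrays. The shares of all probe sets in these fits are not given here. The medians were 0.066 to 0.087 (large) and 0.0485 to 0.123 (small), and the large minus small contrast was -0.036 to 0.023. The lower call, Rpl3l, was lost without any of low arrays 1, 2 and 4 and high arrays 2, 3 and 4. With paralogs and Rps19bp1 left out, the contrast was 0.0048.

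The replicate numbers are shared between the fractions, but correlations of same-numbered arrays were 0.271, 0.0548, 0.0152 and 0.0391, and not every array correlated best with its own number. With the replicate block, 2 members were higher, 1 lower and 25 related genes called, with Eif3e (adjusted p 0.0504) and Eif2b1 (0.061) among the calls lost by limma.

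Signs turned in genes that were not called, including the larger differences of Rpl39l (0.26) and Rps23rg1 (-0.34). Under quantile normalization Rpl7 was -0.013, Rps4x -0.025 and Fau -0.0094. Under median centring Rpl7 was -0.0079. With the spike-in covariate the values were -0.61 for Rpl39l, -0.048 for Rps13, 0.055 for Rps24, 0.025 for Rps23rg1, -0.068 for Rplp1, -0.073 for Rpl23, -0.013 for Rps6, -0.082 for Rpl38, -0.085 for Rpl22, -0.12 for Rpl36a, -0.10 for Rps4x, -0.079 for Rps4l, -0.21 for Rps27rt, 0.097 for Rps19bp1 and -0.059 for Fau. Without single arrays Rpsa ran from -0.019 to 0.0057, Rpl7 from -0.0080 to 0.014, Rpl36 from -0.104 to 0.012 and Rpl10l from -0.011 to 0.139. The cause was not tested. Averaging the probe sets of a gene was not run, since each member has 1. The number of arrays limits the precision.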
